A study of Homo sapiens with 2 samples.

Results

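The genes described here are 49 genes of the interferon system: receptors for type I and type II interferon, their kinases and transcription factors, and the genes that interferon switches on. Members were taken from a list of gene names, and every probe set that the platform annotation assigned to exactly 1 of them was used on both arrays. Of the 49 genes, 48 had such a probe set, out of 19775 genes named on the array, and they held 90 probe sets. STAT2 was not analysed here. A probe set is a group of short probes that together report 1 transcript.

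Total RNA of the established triple-negative breast cancer line MDA-MB-231 was hybridised to 2 Affymetrix U133 Plus 2.0 arrays. 1 array held cells given a control siRNA and 1 array held cells given siRNA against KMO, the gene of kynurenine 3-monooxygenase, each for 48 h (siKMO below). KMO converts kynurenine to 3-hydroxykynurenine in the breakdown of tryptophan. The deposited array names carry shLUC and shK421, strings typical of short hairpin constructs, so the kind of construct was not settled by the labels. With 1 array per condition there was no replicate and no test, and each difference describes this pair of cultures only. The values come from bulk RNA, in which fewer cells expressing a gene and less RNA per cell cannot be told apart.

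Type I interferons bind the receptor pair IFNAR1 and IFNAR2, and type II interferon (IFN-gamma) binds IFNGR1 and IFNGR2. Type I receptors act through the kinases JAK1 and TYK2 on the complex ISGF3, which contains STAT2 and IRF9 and binds interferon-stimulated response elements (ISRE) in gene promoters. The response to type II interferon runs through gamma-activated sequences (GAS). The induced genes hinder viruses at entry, RNA translation, replication and release, and many tumour lines express a part of them without added interferon.

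All levels below are log2 values after robust multi-array averaging (RMA), and all differences are siKMO minus control on that scale, so that a difference of 1 is 2-fold. Each gene was read from its brightest probe set, judged by the average of both arrays, and is called measured if this average reached 6. Of the 48 members 40 were measured. In 3 of the 40, RSAD2, MX2 and SAMD9L, the weaker array lay under 6, so each passed the minimum through its stronger array only. For such genes the weaker level was set to 6, and folds are lower bounds. Levels of different probe sets are not compared with each other, since probes differ in brightness.

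The arrays and cells were checked first. The 3 probe sets of KMO lay between 2.11 and 2.95 over both arrays, far under 6, so they do not check the knockdown. The line's markers VIM, CD44, KRT8 and KRT18 lay between 10.48 and 12.96, and the hormone receptor genes ESR1 and PGR under 6 on both arrays. ERBB2, listed as low in such cells, stood above 6, at 7.44 and 7.37. Of 17 genes that mark leukocytes, plasmacytoid dendritic cells, fibroblasts or endothelium, 15 lay under 6 on both arrays, among them PTPRC, the pan-leukocyte antigen, at 3.39 and 2.98, and all 5 markers of plasmacytoid dendritic cells, a main source of type I interferon. The exceptions were the collagen gene COL1A1, at 7.08 and 6.90, and HLA-DRA, a class II antigen presentation gene that IFN-gamma can induce in non-immune cells, at 7.92 with control siRNA and 8.89 with KMO siRNA. Its part in the values below was not tested.

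Promoter sequences are shown first for members chosen by their differences, from RefSeq windows of build GRCh38.p14. These windows run from 250 bases before to 50 bases after an annotated start. The windows were searched on both strands for an ISRE core, written GAAANNGAA, and for a GAS, written TTCNNNGAA, which reads alike on both strands. Capitals mark the match, and each stretch is printed on the strand of its gene. The first set holds ISRE core matches of RSAD2, the member with the widest gap between arrays, of ISG15 and IFIT1, members that differed by less than 1.5-fold, and of DDX60, the lowest member.

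RSAD2 (chr2:6865796-6865824, plus strand): agcgggaaacGAAAGCGAAgcgttgcggg
ISG15 (chr1:1013380-1013408, plus strand): tcggGAAAGGGAAACCGAAACTGAAgcca
IFIT1 (chr10:89392511-89392539, plus strand): actttcccctTTCGGTTTCcctaggtttc
DDX60 (chr4:168318787-168318815, minus strand): gaggagaaagGAAACCGAAactcccgccg

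In ISG15 3 matches overlap, and in IFIT1 the match shown lies on the other strand. The windows of IFIT1 and DDX60 hold 2 ISRE core matches each, of which 1 is shown. The match shown for RSAD2 also lies in a window of its neighbour CMPK2, read there from the minus strand. At this place 1 annotated start of RSAD2, at position 6865885, and 1 of CMPK2, at 6865819, lie 66 bases apart. The genes are transcribed away from each other. The match lies upstream of that start of RSAD2, with 70 bases between them, and just downstream of that start of CMPK2. CMPK2 has further annotated starts whose windows do not hold the match. RSAD2 has another annotated start, at position 6877777, whose window holds a different ISRE core match, not shown.

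The second set holds 1 GAS match of each member that was lower with KMO siRNA by 1.5-fold or more and had a window. GBP2 had no window. Since the set was chosen by the differences, it cannot show whether GAS letters go with a lower level. The GAS matches of IRF1, MX1, PARP14 and IFI35, which differed by less than 1.5-fold, are not shown. Those of OAS1 and EPSTI1, which were not measured, are not shown either. BST2 has 2 matches, of which the one nearer the start is shown.

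IRF9 (chr14:24161192-24161220, plus strand): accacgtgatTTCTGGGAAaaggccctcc
IFITM1 (chr11:314018-314046, plus strand): aaatacacacTTCTGAGAAactgaaacga
BST2 (chr19:17405670-17405698, minus strand): gtcagagcacTTCCTGGAActtgctattg
IFI27 (chr14:94110625-94110653, plus strand): cagtttcggtTTCCTGGAAaatgaaacct
DDX60 (chr4:168318858-168318886, minus strand): atgctaaactTTCCACGAAagtgcctcgc

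In the IFITM1 and IFI27 windows the GAS match overlaps an ISRE core match, while those shown for IRF9, BST2 and DDX60 overlap none; the other match of BST2 does overlap one. How these letters relate to the measured differences is given after the values.

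By every probe set, the receptors differed by less than 1.5-fold. IFNAR1 stood at 7.19 with control siRNA and 7.30 with KMO siRNA, a difference of 0.11 (-0.10 to 0.30 over 4 probe sets). IFNAR2 had no settled direction, with 7.10 and 7.05 by its brightest probe set, 6.81 and 7.32 by another with a mean over 6, and 5.76 and 6.24 by the third, differences of -0.05, 0.52 and 0.47. The IFN-gamma receptor chain IFNGR1, which binds the ligand, stood at 10.00 and 9.93. Its partner chain IFNGR2, which brings in the kinase JAK2, stood at 10.04 and 9.67, a difference of -0.37.

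The receptor kinases JAK1 and TYK2 also differed by less than 1.5-fold. JAK1, shared by both interferon receptors, stood at 9.52 and 9.36, and its 3 probe sets averaging 6 or more differed by -0.26 to -0.12. TYK2, the partner of JAK1 at the type I receptor, stood at 7.61 and 7.70.

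The 3 measured transcription factors were all at a lower level in the siKMO array, and IRF9 by over 1.5-fold. IRF9, the subunit of ISGF3 that contacts DNA, stood at 7.29 with control siRNA and 6.52 with KMO siRNA, 1.71-fold lower. This rests on 1 probe set: a second one, which the annotation shares between IRF9 and its neighbour RNF31, stood at 4.88 and 5.17, under the minimum and with the other sign. IRF1, a factor induced by IFN-gamma that switches on further genes, stood at 8.02 and 7.68, a difference of -0.34 (-0.14 by its other probe set). IRF7, the amplifier of interferon-alpha production, stood at 6.82 and 6.63.

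**Figure D1:**
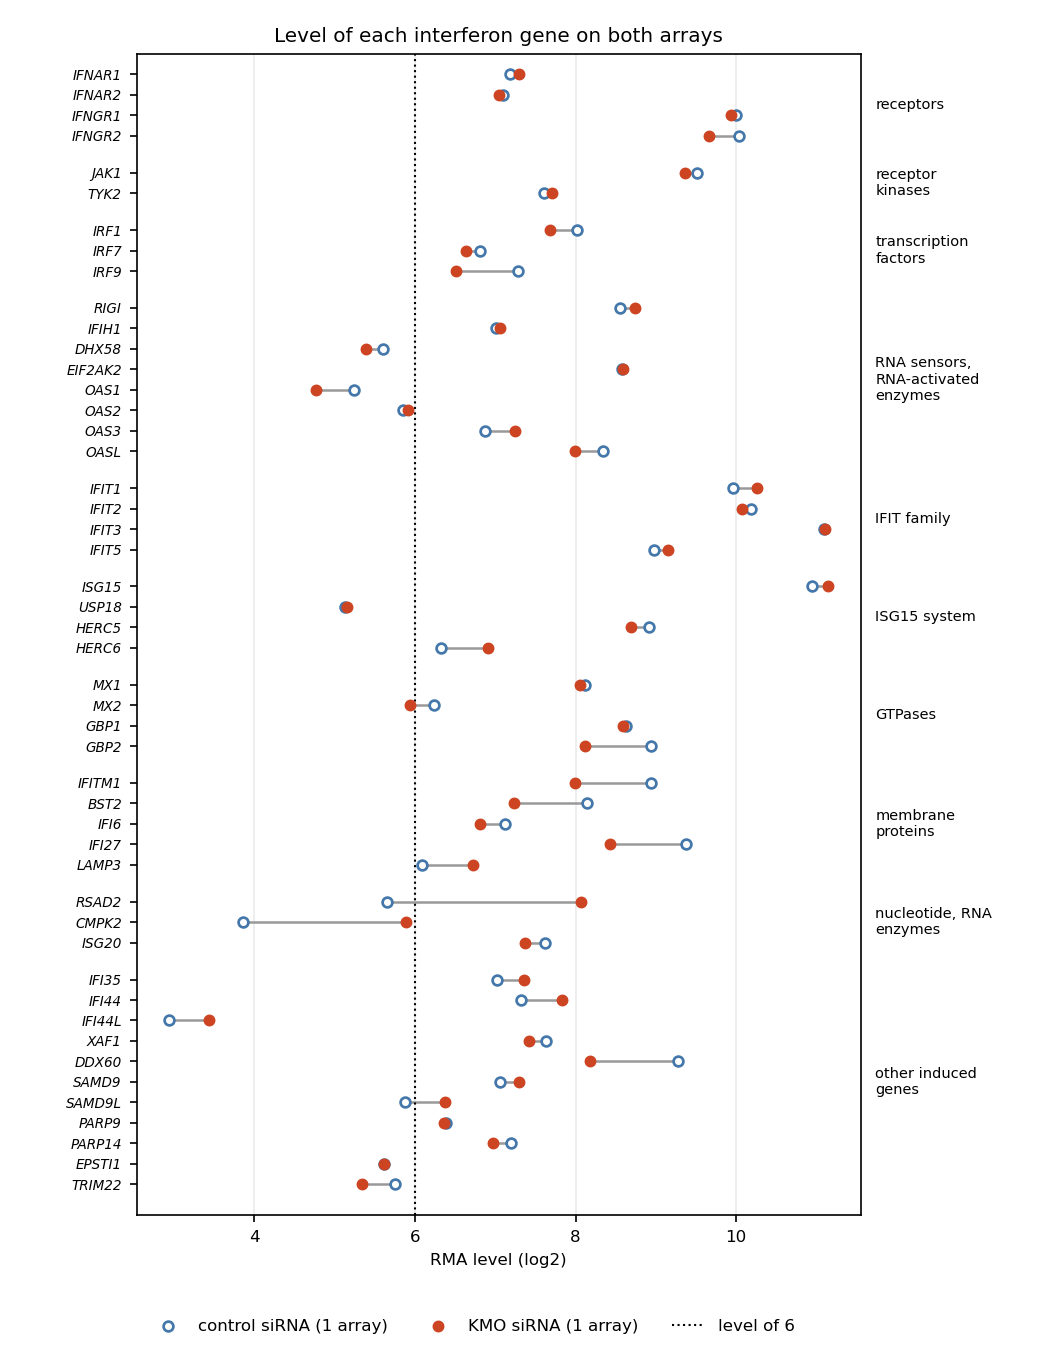
RMA level (log2, horizontal axis) of the 48 interferon genes with a probe set, grouped by role; open blue points are the control siRNA array and filled red points the KMO siRNA array, 1 array each, joined by a line, and the dotted line marks a level of 6. Most pairs nearly coincide, RSAD2 (5.65 and 8.06) and CMPK2 (3.85 and 5.89) have the longest lines, and IRF9, GBP2, IFITM1, BST2, IFI27 and DDX60 have red points clearly left of blue ones.

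The RNA sensors showed no difference of 1.5-fold. RIGI, the cytosolic sensor of RNA ends, stood at 8.55 and 8.74, and its 3 probe sets differed by 0.13 to 0.21. IFIH1 (MDA5), the sensor of long double-stranded RNA, stood at 7.01 and 7.06, and EIF2AK2 (PKR), the kinase that halts translation on double-stranded RNA, at 8.58 and 8.59. DHX58 (LGP2), a helper of these sensors, lay under 6 on both arrays, at 5.60 and 5.39.

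Genes of the oligoadenylate synthetases, which make the second messenger that activates RNase L, pointed in different directions. OAS3 stood at 6.87 and 7.25, a difference of 0.37, whereas OASL, a relative that lacks the synthetase activity, stood at 8.35 and 7.99, with -0.36 and -0.32 by its 2 probe sets. OAS1 and OAS2 lay under 6 on both arrays, OAS1 at 5.25 and 4.77 and OAS2 at 5.85 and 5.91.

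Some IFIT proteins bind foreign RNA at its 5′ end and block its translation. Genes of the IFIT family differed by less than 1.5-fold between the arrays. IFIT1 stood at 9.96 and 10.26, IFIT2 at 10.18 and 10.07, IFIT3 at 11.09 and 11.11 and IFIT5 at 8.97 and 9.15. Their differences were 0.30, -0.11, 0.02 and 0.18, and the further probe sets of IFIT2, IFIT3 and IFIT5 had the same sign as the first.

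Genes of ISG15 conjugation did not share a direction. ISG15, a ubiquitin-like modifier, stood at 10.95 and 11.14, a difference of 0.20. HERC5, the ligase that attaches ISG15 to newly made proteins, stood at 8.91 and 8.69, and HERC6, its relative next to it on the chromosome, at 6.33 and 6.91, a difference of 0.58 that fell just short of 1.5-fold (0.585). USP18, the protease that removes ISG15 and restrains the type I receptor, lay under 6 on both arrays, at 5.13 and 5.16.

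Of the interferon-induced GTPases, GBP2 alone differed by 1.5-fold. GBP2, a guanylate-binding protein that coats intracellular pathogens, stood at 8.95 with control siRNA and 8.12 with KMO siRNA, 1.77-fold lower, and its second probe set at 7.40 and 6.64. Both probe sets thus had a lower siKMO level, with differences of -0.82 and -0.76. Its neighbour GBP1 stood at 8.62 and 8.59, with -0.03 to 0.08 over 3 probe sets of at least 6. MX1, which traps viral nucleoproteins, stood at 8.11 and 8.06, and MX2 at 6.24 and 5.94, lower by at least 0.24.

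Of the 6 members lower by 1.5-fold, 3 came from the role group of membrane proteins, which held 5 members. This group leaves out the 4 receptors, also membrane proteins, which differed by less than 1.5-fold. IFITM1, which hinders fusion of viruses with the cell membrane, stood at 8.94 with control siRNA and 7.998 with KMO siRNA, 1.92-fold lower. BST2 (tetherin), which holds budding virus at the cell surface, stood at 8.15 and 7.24, 1.88-fold lower. IFI27, a small hydrophobic protein of mitochondria and nuclear envelope, stood at 9.37 and 8.43, 1.93-fold lower. These values each rest on 1 probe set. IFITM1 is a near copy of IFITM2 and IFITM3, and a probe set that the annotation shares between IFITM1 and IFITM2 differed by -0.83, while IFITM2 and IFITM3 differed by -0.40 and -0.41, so the share of each paralog is uncertain.

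The other members of this group were IFI6 and LAMP3. IFI6, a relative of IFI27, stood at 7.12 and 6.81. LAMP3, a lysosomal membrane protein induced in maturing dendritic cells and by stress in tumour cells, went the other way, at 6.09 and 6.73, 1.56-fold higher in the siKMO array by its only probe set.

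RSAD2 and CMPK2 had the widest gaps of all members, both toward a higher siKMO level. RSAD2 (viperin), an enzyme that turns CTP into a chain-terminating nucleotide, stood at 5.65 with control siRNA and 8.06 with KMO siRNA, at least 4.18-fold higher, and its second probe set at 4.49 and 6.75. CMPK2, a mitochondrial kinase of nucleoside monophosphates, stood at 3.85 and 5.89, a deposited difference of 2.03. Both CMPK2 levels lay under 6, so no fold is given, and its value alone would not count as measured.

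ISG20, an RNA exonuclease listed with this group, stood at 7.62 and 7.37, and both its probe sets differed by about the same, -0.25 and -0.24.

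**Figure D2:**
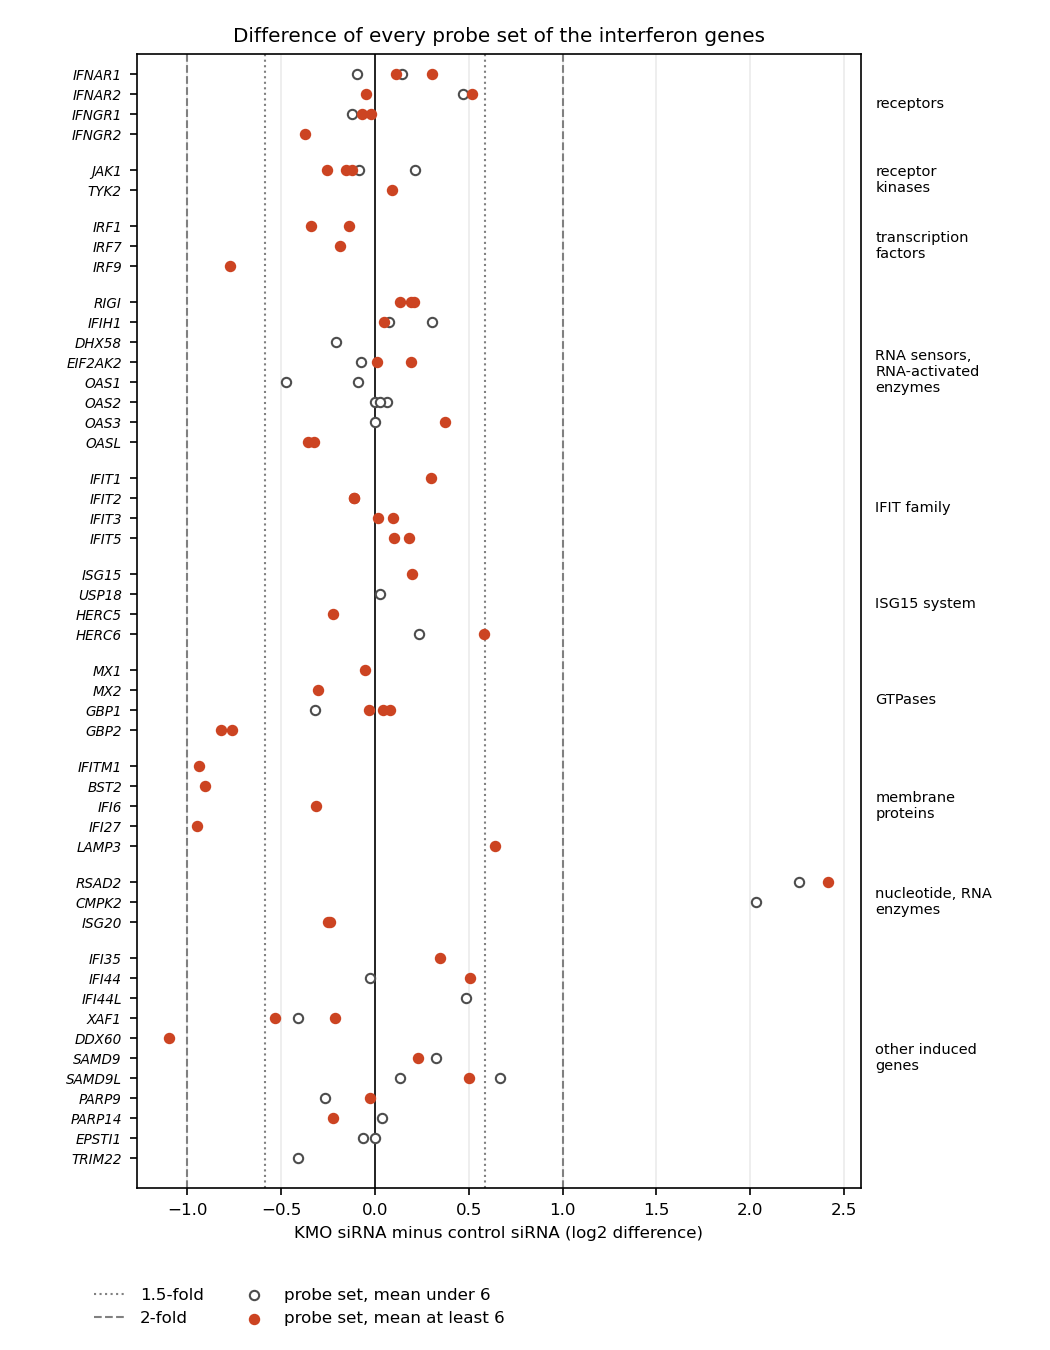
Difference of each of the 90 member probe sets (KMO siRNA minus control siRNA, log2, horizontal axis) by gene; filled points have a mean level of at least 6, open points a lower one, dotted lines mark 1.5-fold and dashed lines 2-fold. The RSAD2 and CMPK2 probe sets lie beyond 2, DDX60 lies below -1, and the points of IFNAR2 fall on both sides of 0.

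Of the remaining induced genes, DDX60 differed by 2-fold. DDX60, a helicase that aids RIG-I-like sensing, stood at 9.28 with control siRNA and 8.18 with KMO siRNA, 2.14-fold lower by its only probe set. IFI44 stood at 7.32 and 7.83, a difference of 0.51 that its second probe set, at 5.99 and 5.96, did not share. Its neighbour IFI44L stood at 2.94 and 3.43, under 6 on both arrays.

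SAMD9 and SAMD9L, neighbouring genes whose proteins restrict poxviruses and growth, had the same sign. SAMD9 stood at 7.06 and 7.29, and SAMD9L at 5.88 and 6.38, higher by at least 0.38. IFI35 stood at 7.02 and 7.36. XAF1, a pro-apoptotic protein, stood at 7.64 and 7.42, and its second probe set of at least 6 at 7.73 and 7.20.

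The last members differed by less than 1.5-fold or lay under 6. PARP9 and PARP14, ADP-ribosyltransferases, stood at 6.38 and 6.36 and at 7.20 and 6.97. TRIM22, a ubiquitin ligase, and EPSTI1 lay under 6, at 5.75 and 5.34 and at 5.61 on both arrays.

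Counted over the 40 measured members, 17 had a higher and 23 a lower siKMO level, a share of 42.5% higher against 54.8% of all 8997 measured genes. The median difference was -0.05 for the members and 0.04 for all measured genes. At 2-fold, 1 member was higher (RSAD2) and 1 lower (DDX60), against 0.856% of all measured genes higher and 1.39% lower. At 1.5-fold, 2 members (5%) were higher, RSAD2 and LAMP3, against a background of 5.19%. In the other direction 6 members (15%) were lower, against 5.41% of all measured genes. RSAD2 counts here although it passed the minimum through its siKMO array only. With both arrays at 6 or more, 0 of 37 members were 2-fold higher. At 1.5-fold, 1 of these 37 was then higher, against 412 of 8676 genes, and 6 were lower, against 418.

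At 1.5-fold, the higher share thus did not lie above the background, and the lower one did. With members that respond to the same signals, such a share is a description of these arrays. Without a minimum level, the deposited difference reached 2-fold higher in 2 of 48 members, RSAD2 and CMPK2, against 0.647% of 19775 genes. Both levels of CMPK2 lay under 6, so it does not count as measured. In the lower direction, 1 member reached 2-fold, against 1.08% of genes. The quartiles of the measured members lay at -0.30 and 0.19, and those of all measured genes at -0.17 and 0.25. Among all 8997 measured genes ordered from the lowest difference, DDX60 ranked 92, IFI27 145, IFITM1 146, BST2 164, GBP2 224 and IRF9 259.

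**Figure D3:**
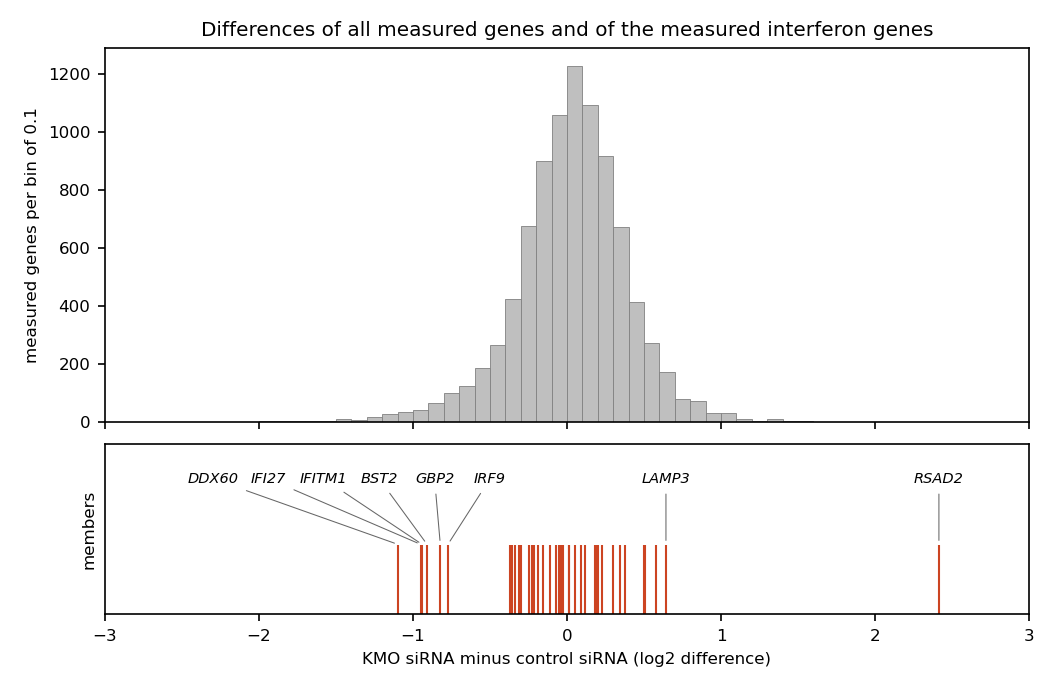
Upper panel: number of measured genes (vertical axis, 8997 in all) in bins of 0.1 of the difference between arrays (KMO siRNA minus control siRNA, log2, horizontal axis). Lower panel: 1 red line for each of the 40 measured interferon genes on the same axis, with names for those at least 1.5-fold different; 32 lie inside that range, 6 lie below it and 2 above it, and RSAD2 is drawn at its deposited difference of 2.42, of which 2.06 is the lower bound.

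By role, the median difference was -0.91 for the 5 listed membrane proteins, a group without the receptors, and -0.34 for the 3 transcription factors. The 4 measured GTPases, all with a lower siKMO level (GBP1 by its brightest probe set only), had a median of -0.18. The 4 IFIT genes had a median of 0.10, the 5 measured RNA sensors and RNA-activated enzymes 0.05, and the 4 receptors -0.06. The receptor median turned positive with other choices of probe set, at 0.02 if all probe sets of a gene were averaged, 0.08 by the median of those averaging 6 or more, and 0.11 without multi-target probe sets. Of 15 measured members with 2 or more probe sets of at least 6, 13 had 1 sign throughout; the exceptions were IFNAR2 and GBP1. Probe sets of a gene are not replicates of a culture.

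Several members lie next to each other in the genome, with no protein-coding gene between them in the RefSeq table, which served here for names and order. There were 11 such neighbouring pairs, of which 7 had differences of the same sign. The share over all neighbouring genes was not computed, so these counts are a description only. In 7 of the 11 both members were measured, and 4 of these 7 had the same sign; in none of them did both members differ by 1.5-fold. CMPK2 and RSAD2 are not among these, since both levels of CMPK2 lay under 6. HERC6 and HERC5 differed by 0.58 and -0.23, OAS1 and OAS3 by -0.48 and 0.37, and GBP1 and GBP2 by -0.03 and -0.82. OAS1 lay under 6 on both arrays, and its other probe set differed by -0.09. The shared sign of GBP1 and GBP2 rests on the brightest probe set of GBP1. Its others averaging 6 or more differed by 0.08 and 0.04.

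In the promoter windows, 24 of 37 members with a window (64.9%) held an ISRE core, against 9.86% of all 27305 genes with a window, and 11 (29.7%) held a GAS, against 9.38%. A gene with several windows counted once. The 21 measured members with an ISRE core had a median difference of -0.02, with 10 higher and 11 lower, and the 12 without had a median of 0.01. ISRE core letters were thus found both in RSAD2 and in DDX60, at the 2 ends of the members' range.

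For the GAS the values fell apart more. Of 9 measured members with a GAS match 8 were lower, 5 of them by at least 1.5-fold, with a median of -0.77; of the 24 without, 9 were lower, 0 by 1.5-fold, with a median of 0.07. All 5 members that were lower by 1.5-fold and had a window, IRF9, IFITM1, BST2, IFI27 and DDX60, held a match, and 4 of them an ISRE core as well. Of the 9 measured members with a GAS match, 6 also held an ISRE core. In IFITM1, IFI27, BST2 and MX1 a GAS match overlapped an ISRE core match. GAS and ISRE core letters thus cannot be told apart in these members. Members with GAS letters that did not differ by 1.5-fold were IRF1, MX1, PARP14 and IFI35, the last with a difference of 0.35. Among all measured genes the letters made little difference: 5.68% of 634 genes with a match were lower by 1.5-fold, and 5.09% of 6920 without. By sign alone, 44.3% of the genes with a match were lower, and 43.6% of those without. A match is a description of letters in a window and does not show that a factor binds there.

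**Figure D4:**
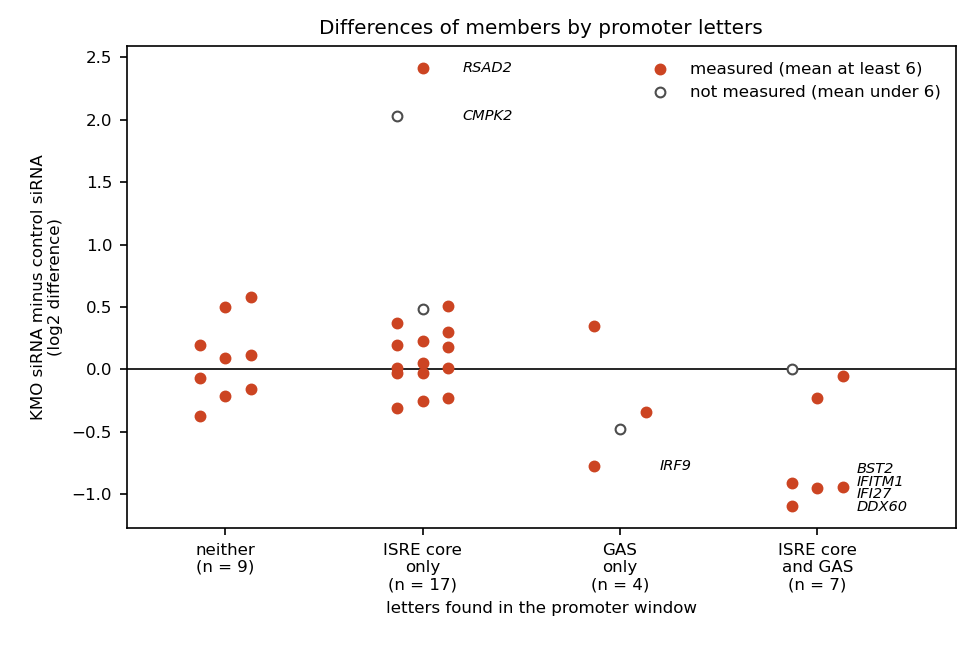
Difference between arrays (KMO siRNA minus control siRNA, log2, vertical axis) of the 37 members with a promoter window, by the letters found in it (horizontal axis); filled points are measured genes, open points lie under the minimum, and names mark differences of at least 1.5-fold. The 6 measured members with both kinds of letters lie between -1.09 and -0.05, and RSAD2 and CMPK2 lie at the top of the class with an ISRE core only.

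Other genes of the interferon system were taken from a list of 97 genes, of which 89 had a probe set and 55 were measured. Of the 55, 26 were higher and 28 lower, with a median of -0.003. By at least 1.5-fold, 2 (3.64%) differed in each direction, against 5.19% of all measured genes higher and 5.41% lower. The 18 interferon genes with a probe set, IFNB1 among them at 2.87 and 2.75, lay between 1.54 and 4.59, and none reached 6 on either array. These are RNA levels in the cells, and secreted interferon was not measured.

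Among signalling partners, STAT3 stood at 9.42 and 9.19, IRF3, the factor that starts interferon-beta transcription, at 7.57 and 7.56, and the 5 measured genes of this list were all lower by less than 1.5-fold. JAK2 and SOCS1, an inhibitor of JAK kinases, lay under 6 on both arrays, with their brightest probe sets at 5.38 and 5.45 and at 4.37 and 4.597. SOCS3, another inhibitor of cytokine receptors, stood at 8.01 and 7.34, a difference of -0.67 (-0.32 by its second probe set averaging 6 or more).

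Sensors and adaptors upstream of interferon differed by less than 1.5-fold in all 11 measured cases, with a median of 0.14. The DNA sensor CGAS stood at 6.96 and 7.54, a difference of 0.58 (0.28 by its second probe set averaging 6 or more). Its adaptor STING1 stood at 7.05 and 6.68, a difference of -0.37. The kinase TBK1 stood at 8.11 and 8.43 and the adaptor TRAF3 at 8.04 and 8.40. CGAS and STING1, which act in series, thus had opposite signs.

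Of 32 further induced genes measured, 13 were higher and 19 lower, with a median of -0.06. IDO1, the tryptophan-degrading enzyme, stood at 5.48 and 7.46, at least 2.75-fold higher, and passed the minimum through its siKMO array only. TRIM14, an adaptor of antiviral signalling, stood at 7.39 and 8.16, with all 5 of its probe sets higher. TNFSF10, the death ligand TRAIL, stood at 9.38 and 8.50, and its 3 probe sets differed by -0.89 to -0.76. The direction of these genes thus varied as it did among the members.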

How the data were processed

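The deposited values are log2 levels of 54675 probe sets on 2 arrays, made by the authors with robust multi-array averaging, per the series' design text, and Affymetrix Expression Console, per the submitters' processing notes; its version is not given in the sources used here. RMA removes background, forces the arrays to a common distribution (medians 4.44 and 4.43) and compresses weak differences, so a shift shared by all genes cannot be seen. Precision is limited by the number of arrays.

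The platform annotation gave the gene of each probe set, with symbols updated by gene identifier from RefSeq (GRCh38.p14); 41091 carried 1 gene, 41037 of them matched by identifier, and 1801 with several genes named none. Of the 48 members with a probe set, 37 had a promoter window. Calculations used Python 3.11.15 and pandas 2.3.3 and were tested on simulated data. No test between conditions was possible. All members could be named; of the other pathway genes, a fixed set and those at least 1.5-fold different; further ones named were chosen after their values were seen. Members, lists and thresholds were chosen with earlier results of these data known. The 8 alternatives changed the level minimum, the probe set that stands for a gene, or the centring. A gene of the wider pathway list is not reported here.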

Additional observations from a re-analysis of the deposited data

How the results depend on the processing

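Under 8 alternatives, all 6 members at least 1.5-fold lower kept their sign and stayed beyond 1.5-fold wherever they were still measured, as did RSAD2 (2.06 to 2.42) and LAMP3 (0.60 to 0.64). For IRF9, IFITM1, BST2, IFI27, DDX60 and LAMP3, with 1 probe set each, this was largely fixed in advance. An alternative could only drop such a gene or shift it by the centring, so DDX60 ran from -1.13 to -1.09. GBP2, with 2 probe sets, ran from -0.86 to -0.79. Of 292 values for single genes, 287 moved by less than 0.183, the pooled SD between probe sets of a gene. That SD holds no spread between cultures or arrays. Many of these values could not move, since another level minimum keeps or drops a gene without changing its difference. Of 115 counts and medians, 7 moved. A count was taken as moved if it changed by more than 1.5-fold or to 0, and a median if it changed by at least 0.183. By this rule the count of 6 members at least 1.5-fold lower did not move, though it was 5 of 31 with a minimum of 7. Members at least 2-fold higher were 2 without a minimum level and 0 with a minimum of 7 or with both arrays at 6 or more, since RSAD2 drops out; members at least 1.5-fold higher were then 0 and 1. Without probe sets ending in _x_at, _s_at or _a_at, 0 members were 2-fold lower, since DDX60 has no other probe set. IFITM1 dropped out as well, so 4 of 30 members were at least 1.5-fold lower, against 354 of 6257 genes. The median of the membrane proteins was then -0.61 in place of -0.91. IFNAR2 changed sign with another choice of probe set (0.24 to 0.52), GBP1 with the median of its probe sets (0.04), and EIF2AK2 and IFIT3 when the median of all measured genes was subtracted (-0.03 and -0.02), which also moved the 2-fold counts over all genes from 77 and 125 to 61 and 138. No paired analysis was possible because each condition has 1 array. No replicate could be left out for the same reason.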
